A study of Drosophila melanogaster with 4 samples.

Results

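The mitochondrial respiratory chain carries electrons from NADH and succinate to oxygen through complexes I to IV and uses the resulting proton gradient to make ATP at complex V. Complex II is built wholly from nuclear genes. The other complexes join nuclear subunits, made in the cytosol and imported, to a few subunits encoded in the mitochondrial genome. In growing tissues such as the larval wing disc, which patterns and proliferates before it forms the adult wing, the chain supplies ATP and reoxidises the carriers of metabolism.

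The nuclear genes of the respiratory chain were chosen by their FlyBase symbols (beginning with ND-, with COX and a digit, with UQCR, with SdhA to SdhD, or with ATPsyn), and messengers of the mitochondrial genome were left out. The reference annotation holds 87 such genes, of which 86 had an entry in the counts, among 14061 genes with a name and an entry. 63 of the 86 are subunits of the complexes, 34 of complex I, 4 of complex II, 6 of complex III, 8 of complex IV and 11 of complex V, and 23 are paralogue copies of subunit genes whose symbols end in L or in L and a digit. The remaining gene, the paralogue copy COX7CL, had no entry. The sorting into subunits and copies followed the symbols.

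RNA of wing imaginal discs, dissected from female larvae of the third instar, was sequenced in 1 library per genotype, each made from a pool of 300 discs collected in 6 batches of 50. The library labelled FH-cortoCD is described as carrying sd::Gal4 and UAS::FH-cortoCD, the chromodomain of the chromatin factor Corto with FLAG and HA tags and a nuclear localization signal. The library labelled RpL12-Myc is described as carrying sd::Gal4 and UAS::RpL12-Myc, the ribosomal protein RPL12 with a Myc tag. The w1118 library is a reference line with neither driver nor transgene, and sd::Gal4/+ carries the driver alone, in which the scalloped gene drives the yeast activator Gal4 in the wing. The FH-cortoCD and RpL12-Myc libraries are called assays, both carry the driver, and sd::Gal4/+ is the control in every comparison below unless another library is named.

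The counts summed to 43698298 in FH-cortoCD, 44736060 in RpL12-Myc, 26833482 in w1118 and 35219666 in sd::Gal4/+, and TMM scaling (edgeR's trimmed mean of M-values) made the assay libraries 1.19 and 1.24 times as large as sd::Gal4/+. The genotype field of the public record names the transgenes of the assays the other way round from the titles, and the titles were kept. At its most abundant entry RpL12 had 29086 reads in FH-cortoCD, 24106 in RpL12-Myc, 9993 in w1118 and 17429 in sd::Gal4/+, and corto had 6164, 7836, 5424 and 7766 reads, so that RpL12 had more reads in FH-cortoCD than in RpL12-Myc, and corto fewer. Scaled and set against sd::Gal4/+, the log2 fold changes in FH-cortoCD and RpL12-Myc were 0.49 and 0.16 for RpL12, and -0.58 and -0.29 for corto. The study's own gene lists name the counts of the libraries as the titles do. Their list of genes higher in FH-cortoCD holds other entries of RpL12, with larger unscaled fold changes than the most abundant entry. The reads of those entries in RpL12-Myc are not given here. The counts do not settle which transgene each library carried, and the assays are named here by their library labels. All 12 wing disc markers examined, among them vg, nub and wg, were detected in every library, with 1275, 1238, 1614 and 1486 summed RPM (reads scaled to a library of 1000000 reads) in FH-cortoCD, RpL12-Myc, w1118 and sd::Gal4/+. Markers of other tissues also differed between the libraries. Those of larval muscle, a tissue rich in mitochondria, summed to 154.5, 156.3, 102.4 and 92.8 RPM in the same order, those of midgut to 32.4, 230.9, 0.50 and 0.34, and those of fat body to 678, 971, 64.3 and 1443. All 9 muscle and all 7 fat body markers were detected, and 7 of 8 midgut markers, Jon99Ci being at 0 reads in every library. Not each marker followed its sum, the muscle factor Mef2 having 27.5, 28.3, 30.1 and 27.7 RPM.

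Summed over each of the 5 complexes, nuclear subunits had a higher level in both assays than in both controls. The 63 subunits together had 6823 RPM in FH-cortoCD, 6261 in RpL12-Myc, 4332 in w1118 and 4634 in sd::Gal4/+ (1 library each). As a share of all counts this was 0.660% in FH-cortoCD (95% Wilson interval 0.658 to 0.662), 0.615% in RpL12-Myc (0.613 to 0.617), 0.452% in w1118 (0.449 to 0.454) and 0.467% in sd::Gal4/+ (0.465 to 0.470). The intervals cover counting error only, and they are too narrow, because each fragment was read from both ends and can count 2 times. In pooled tissue, more cells of a type and more RNA per cell cannot be told apart. The summed levels of the muscle and midgut markers were, like those of the subunits, higher in both assays than in both controls, and their part in the result was not tested.

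Each gene was judged at its most abundant entry, an entry being a transcript or a stretch of exons shared by a set of transcripts. A gene was called when the binomial test of edgeR gave an adjusted P-value (Benjamini-Hochberg, over 30950 entries) below 4e-18 and the log2 fold change exceeded 1 in either direction. 17 of the 63 subunits, or 27%, were called higher in FH-cortoCD, where 1.56% of all genes with a read and 2.36% of the genes with at least 1000 reads were called higher. In RpL12-Myc 5 subunits, or 7.94%, were called higher, against 1.01% of all genes and 1.23% of the genes with at least 1000 reads. Without scaling of the libraries 29 members were called higher in FH-cortoCD and 17 in RpL12-Myc, and after a correction for entry length, described below, 2 in each. None was called lower in FH-cortoCD, where 1.55% of all genes were, or in RpL12-Myc, where 2% were. None was called in w1118, where 0.0539% of all genes were called higher and 0.449% lower. The study fixed the P-value cutoff on w1118 against sd::Gal4/+, so that only 1% of transcripts differed there. Few genes pass in w1118 by that choice, and the lack of calls there is no independent check. With 1 library per genotype these tests compare libraries and not genotypes, and none of the values has a replicate check.

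Most subunits moved by less than the fold limit. Without that limit, 47 subunits, or 74.6%, passed the P-value cutoff and were higher in FH-cortoCD (8.45% of all genes, 14.5% of genes with at least 1000 reads), and 37, or 58.7%, in RpL12-Myc (8.53% and 14.7%). No subunit passed and was lower in FH-cortoCD (7.73% of all genes), and 2 did in RpL12-Myc, ND-AGGG and UQCR-11 (7.33% of all genes). In w1118 4 subunits passed, all lower, which were COX7A, COX8, UQCR-C1 and ATPsyngamma (1.27% of all genes passed and were lower there). The test counts both reads of a pair, so its P-values are too small and the counting intervals given below for single genes too narrow. With first reads alone, 36 members in FH-cortoCD and 23 in RpL12-Myc passed the P-value cutoff and were higher. Nor does the test take account of variation between cultures. The exact test of edgeR was also run at the dispersion seen between w1118 and sd::Gal4/+ (0.0132). In it 1 subunit was called in FH-cortoCD and 0 in RpL12-Myc at the same cutoff. When the cutoff on the adjusted P-value was relaxed to 0.05, 17 and 5 were called.

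The median log2 fold change of the 63 subunits was 0.71 in FH-cortoCD (quartiles 0.39 and 1.01), 0.51 in RpL12-Myc and -0.16 in w1118, each against sd::Gal4/+. Over all genes with more than 3 reads in either library these medians were 0.01, 0.03 and -0.02. The complexes lay close together, with medians in FH-cortoCD of 0.66 for complex I, 0.63 for complex II, 0.72 for complex III, 0.85 for complex IV and 0.79 for complex V. In RpL12-Myc they were 0.43, 0.47, 0.47, 0.52 and 0.71 in the same order. Within a complex the subunits were not uniform, and the range over complex I alone ran between -0.37 and 1.68 in FH-cortoCD.

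**Figure D1:**
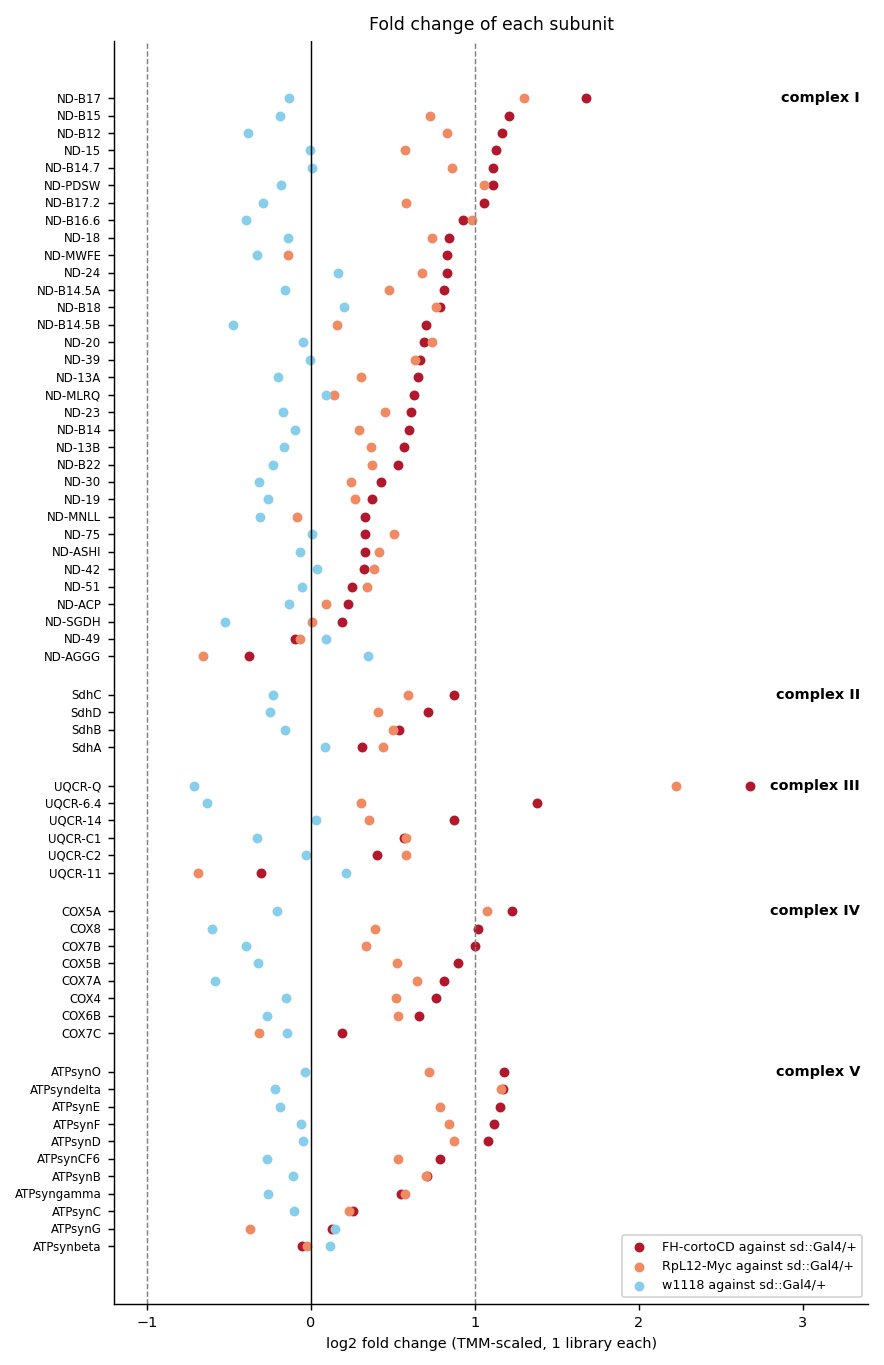
Log2 fold change against sd::Gal4/+ (horizontal axis, TMM-scaled, 1 library each) of 62 subunits grouped by complex, for FH-cortoCD, RpL12-Myc and w1118. ND-B8, with at most 12 reads in a library, is left out, and dashed lines mark a change of 1 in either direction. In FH-cortoCD most points lie right of 0, up to 2.68 for UQCR-Q, while the w1118 points have a median of -0.16 over the 63 subunits.

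A second view does not depend on the choice of control. 55 of the 63 subunits, or 87.3%, had a scaled level in both assays above that in both controls, against 32.8% of all genes and 41.1% of the genes with at least 1000 reads. Another 4, or 6.35%, were below both controls in both assays, against 27.7% and 34.7%. The levels of the remaining 4, ND-MNLL, ND-MWFE, COX7C and ATPsynG, overlapped between assays and controls.

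**Figure D2:**
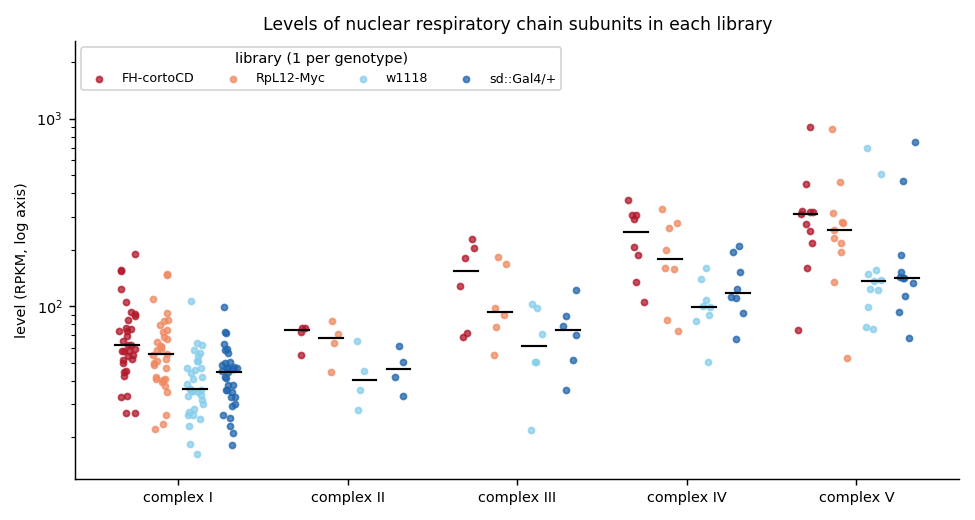
Level of each subunit (points, RPKM, log axis) in the FH-cortoCD, RpL12-Myc, w1118 and sd::Gal4/+ libraries by complex, with the median as a bar. ND-B8 is left out. In each complex the median bars of both assays lie above those of w1118 and sd::Gal4/+.

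Levels between genes were compared as RPKM, the RPM divided by the length of the entry in kilobases. In sd::Gal4/+ the median subunit had 43.1 RPKM in complex I, 46.2 in complex II, 74.2 in complex III, 117.6 in complex IV and 141.2 in complex V. The most abundant subunit was ATPsynC, which forms the membrane ring that turns as protons pass, with 897 RPKM in FH-cortoCD, 883 in RpL12-Myc, 697 in w1118 and 750 in sd::Gal4/+. It was followed by ATPsynbeta, the subunit that carries the catalytic sites of ATP synthesis, with 448.5, 456, 504 and 465 RPKM. The log2 fold change of ATPsynC was 0.26 in FH-cortoCD and 0.23 in RpL12-Myc at this entry, the lowest of the 6 entries of this gene that reached 100 reads in each library, and up to 1.69 and 1.67 at the others. Summed over all its entries it was 0.44 and 0.43.

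Complex I oxidises NADH and passes its electrons to ubiquinone. Its 7 nuclear core subunits include those that carry the flavin and the iron-sulphur clusters or line the quinone site, and the other 27 nuclear subunits are accessory. None of the 7 core subunits was called in either assay (of all genes 1.56% and 1.01% were called higher, 1.55% and 2% lower). Their median log2 fold change was 0.43 in FH-cortoCD and 0.45 in RpL12-Myc, and ND-24, the core subunit with the largest change in FH-cortoCD, had 2013 reads in FH-cortoCD, 1889 in RpL12-Myc, 843 in w1118 and 953 in sd::Gal4/+. The accessory subunits had medians of 0.71 and 0.41, with 7 called in FH-cortoCD and 2 in RpL12-Myc. The median entry of the core subunits is 1061 bases long and that of the accessory subunits 545 bases. This split was made after the values had been seen and its difference was not tested.

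The complex I genes called in FH-cortoCD were ND-B17, ND-B15, ND-B12, ND-15, ND-B14.7, ND-PDSW and ND-B17.2, all accessory. ND-B17 (FBgn0001989), a subunit of the membrane arm, lies on the minus strand of chromosome 2L of dm3, and 333 exon bases from 15750722 to 15751054 form its entry with most reads, with 2673 reads in FH-cortoCD, 2139 in RpL12-Myc, 504 in w1118 and 702 in sd::Gal4/+. Both assays stood well above both controls. The log2 fold change was 1.68 in FH-cortoCD (95% counting interval 1.56 to 1.80, adjusted P-value 5.17e-198 in the binomial test of edgeR) and 1.30 in RpL12-Myc (1.18 to 1.42). The rise did not extend over the whole gene. Its other entry, of 353 bases at the 3′ end, had 334 reads in FH-cortoCD, 316 in RpL12-Myc, 246 in w1118 and 332 in sd::Gal4/+, and its log2 fold change was -0.24 in FH-cortoCD and -0.38 in RpL12-Myc. Summed over both entries, ND-B17 had a log2 fold change of 0.94 in RpL12-Myc and was no longer called there.

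ND-PDSW (FBgn0021967), likewise of the membrane arm, was called in both assays. It lies on chromosome 2L from 3466787 to 3467326 and had 3076 reads in FH-cortoCD, 3079 in RpL12-Myc, 832 in w1118 and 1199 in sd::Gal4/+, with log2 changes of 1.11 and 1.05. The other called genes of complex I differed more between the assays. ND-15 had 2349 reads in FH-cortoCD, 1668 in RpL12-Myc, 710 in w1118 and 904 in sd::Gal4/+, that is, log2 changes of 1.13 and 0.58, and ND-B17.2 had 1851, 1383, 480 and 747 reads, log2 fold changes of 1.06 and 0.58. ND-15 also varied along its length, with 1.34 at its most 5′ entry and -0.004 at its most 3′ entry in FH-cortoCD. ND-B15, ND-B12 and ND-B14.7 changed by 1.21, 1.17 and 1.11 in FH-cortoCD and by 0.73, 0.83 and 0.86 in RpL12-Myc.

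ND-MLRQ, placed in complex I by its name although its mammalian counterpart is now assigned to complex IV, had the highest level of the ND- genes in sd::Gal4/+, with 153.8 RPKM in FH-cortoCD, 109.5 in RpL12-Myc, 106.0 in w1118 and 99.3 in sd::Gal4/+. It passed the P-value cutoff only in FH-cortoCD. ND-MWFE, which mammalian complex I needs for assembly, split the assays, with 999 reads in FH-cortoCD, 530 in RpL12-Myc, 296 in w1118 and 472 in sd::Gal4/+ and log2 changes of 0.83 and -0.14. ND-B8 had 11 reads in FH-cortoCD, 12 in RpL12-Myc, 4 in w1118 and 5 in sd::Gal4/+, over 7.46% of its bases in sd::Gal4/+, and no change in it was detectable at this depth, though it counts among the 55 subunits with both assays above both controls.

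Complex II oxidises succinate and is also an enzyme of the citric acid cycle. All 4 subunits passed the P-value cutoff and were higher in FH-cortoCD (8.45% of all genes), and 3 in RpL12-Myc (8.53%). None reached the fold limit, where 1.56% and 1.01% of all genes were called higher. SdhC, a membrane anchor, had 2140 reads in FH-cortoCD, 1832 in RpL12-Myc, 661 in w1118 and 983 in sd::Gal4/+, that is, log2 changes of 0.87 and 0.59, the largest of the complex in both assays. SdhD, the other anchor, had 2053, 1732, 697 and 1052 reads, and its change of 0.41 in RpL12-Myc was the smallest there. SdhA, the flavoprotein that holds the succinate site, had 7936 reads in FH-cortoCD, 9011 in RpL12-Myc, 4496 in w1118 and 5373 in sd::Gal4/+, that is, log2 changes of 0.31 and 0.44. In sd::Gal4/+ it was the most abundant member of the complex per length, with 61.4 RPKM.

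Complex III passes electrons from ubiquinol to cytochrome c, and it holds the member with the largest change. UQCR-Q (FBgn0036728), whose mammalian counterpart is known as the ubiquinone-binding subunit, lies on the plus strand of chromosome 3L, and its entry with most reads, 536 exon bases between 17468174 and 17469224, had 5172 reads in FH-cortoCD, 3937 in RpL12-Myc, 326 in w1118 and 678 in sd::Gal4/+. The controls also differed between themselves, w1118 being lower by a log2 fold change of -0.71. The log2 fold change was 2.68 in FH-cortoCD (95% counting interval 2.56 to 2.79) and 2.23 in RpL12-Myc (2.11 to 2.35). All 5 entries of UQCR-Q were higher, the least changed being an entry of 185 bases shared by 3 transcripts, with 1672 reads in FH-cortoCD, 1100 in RpL12-Myc, 295 in w1118 and 324 in sd::Gal4/+, that is, log2 changes of 2.11 and 1.45. Reads covered 47.8% of the bases of the most abundant entry in FH-cortoCD and 48.0% in sd::Gal4/+.

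UQCR-6.4 was called in FH-cortoCD and set the assays apart, with 2548 reads in FH-cortoCD, 1263 in RpL12-Myc, 418 in w1118 and 824 in sd::Gal4/+. Its log2 fold change was 1.38 in FH-cortoCD and 0.31 in RpL12-Myc. In the annotation 40.5% of its exon bases lie opposite POSH, and since the counting is not stated to use strand, reads of these genes cannot be told apart there. UQCR-C1, a core protein of the complex and the most abundant per length in sd::Gal4/+, had 180.5 RPKM in FH-cortoCD, 181.9 in RpL12-Myc, 97.2 in w1118 and 121.7 in sd::Gal4/+. Its log2 fold changes of 0.57 and 0.58 passed the P-value cutoff and not the fold limit.

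Complex IV reduces oxygen. Its catalytic subunits are mitochondrial, and the 8 nuclear members surround them. COX5A (FBgn0019624), a subunit on the matrix side, was called in both assays. Its entry of 663 bases on chromosome 3R from 7645359 to 7646021 had 8129 reads in FH-cortoCD, 7578 in RpL12-Myc, 1994 in w1118 and 2914 in sd::Gal4/+, that is, log2 changes of 1.23 (95% counting interval 1.17 to 1.29) and 1.07 (1.01 to 1.13). COX8 and COX7B, small subunits that span the membrane, were called in FH-cortoCD with changes of 1.02 and 1.003, just past the limit. In RpL12-Myc their values were 0.39 and 0.34, of which that of COX7B did not pass the P-value cutoff. COX8 had 5258 reads in FH-cortoCD, 3539 in RpL12-Myc, 1132 in w1118 and 2184 in sd::Gal4/+.

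COX7A, the most abundant nuclear subunit of complex IV in sd::Gal4/+, had 367.5 RPKM in FH-cortoCD, 327.7 in RpL12-Myc, 139.8 in w1118 and 209.5 in sd::Gal4/+. In w1118 COX6B was higher, with 160.4 RPKM. Its log2 fold change was 0.81 in FH-cortoCD and 0.65 in RpL12-Myc, and with w1118 as the control it was 1.39 and 1.23, past the limit in both. All 8 subunits were lower in w1118 than in sd::Gal4/+. COX7C departed from the rest, with 1402 reads in FH-cortoCD, 1025 in RpL12-Myc, 736 in w1118 and 1033 in sd::Gal4/+ and log2 changes of 0.19 and -0.32.

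Complex V turns the proton gradient into ATP. 9 of its 11 members passed the P-value cutoff and were higher in each assay (8.45% and 8.53% of all genes). In FH-cortoCD 5 were called (1.56% of all genes were called higher). ATPsyndelta (FBgn0028342), part of the central stalk, was called in both. Its entry of 663 bases on chromosome X from 10107005 to 10108274 had 8914 reads in FH-cortoCD, 9175 in RpL12-Myc, 2249 in w1118 and 3325 in sd::Gal4/+, that is, log2 changes of 1.17 (95% counting interval 1.11 to 1.23) and 1.16 (1.10 to 1.21). Across its transcripts 35.6% of its exon bases lie opposite CG2962, which had 119 reads in all 4 libraries together.

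The peripheral stalk, which holds the catalytic head still against the turning ring, was higher at the most abundant entry of every member. All 4 of its members on the list, ATPsynB, ATPsynD, ATPsynCF6 and ATPsynO, passed the P-value cutoff and were higher in both assays (8.45% and 8.53% of all genes). Their log2 fold changes lay between 0.71 and 1.18 in FH-cortoCD and between 0.53 and 0.87 in RpL12-Myc. The 5′ entries of ATPsynB and ATPsynCF6 did not share this, with log2 fold changes of -0.13 and 0.06 in FH-cortoCD and of -0.11 and 0.01 in RpL12-Myc. ATPsynO, at the top of that stalk, had 7510 reads in FH-cortoCD, 5681 in RpL12-Myc, 2145 in w1118 and 2791 in sd::Gal4/+, and ATPsynD had 10108, 9102, 3065 and 4018 reads. Among the small membrane subunits ATPsynE and ATPsynF changed by 1.15 and 1.12 in FH-cortoCD and by 0.79 and 0.84 in RpL12-Myc. ATPsynG, of the same part of the complex, had 1914 reads in FH-cortoCD, 1409 in RpL12-Myc, 1283 in w1118 and 1470 in sd::Gal4/+, that is, log2 changes of 0.13 and -0.37. The grouping by part of the complex was made after the values had been seen.

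The 4 subunits that were below both controls in both assays share a location. They are the only subunits on chromosome 4 or in 3LHet, the assembled heterochromatin of the left arm of chromosome 3, a feature noticed only after their values were seen. ATPsynbeta (FBgn0010217), at 1053533 to 1055175 on chromosome 4, had 30146 reads in FH-cortoCD, 31882 in RpL12-Myc, 22438 in w1118 and 26241 in sd::Gal4/+, that is, log2 changes of -0.05 and -0.03, and ND-49, a core subunit of complex I at 588914 to 591420, had 3647, 3873, 2751 and 3281 reads, changes of -0.10 and -0.07. These chromosome 4 genes were nearly level between the libraries. The genes in 3LHet were lower, ND-AGGG (459586 to 460458) with 853 reads in FH-cortoCD, 729 in RpL12-Myc, 931 in w1118 and 929 in sd::Gal4/+, changes of -0.37 and -0.66. UQCR-11 (606198 to 606827) had 1549, 1235, 1472 and 1609 reads, changes of -0.31 and -0.69.

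All 4 were higher in w1118 than in sd::Gal4/+, by 0.09 to 0.35 on the log2 scale, whereas 49 of the 59 subunits on arms X, 2 and 3 were lower there. The same arms moved over the whole genome. The 57 genes of chromosome 4 with at least 1000 reads had a median change of -0.57 on the log2 scale in FH-cortoCD and -0.75 in RpL12-Myc, the 13 genes of 3LHet -0.81 and -0.71, and the 6374 genes of arms X, 2 and 3 0.02 and 0.05. The 59 subunits on arms X, 2 and 3 were all above 0 in FH-cortoCD, and 55 of them in RpL12-Myc. ATPsynbeta and ND-49 thus lay above the median of their chromosome in both assays. ND-AGGG and UQCR-11 also lay above the median of 3LHet, by little in RpL12-Myc (-0.66 and -0.69, beside -0.71).

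**Figure D3:**
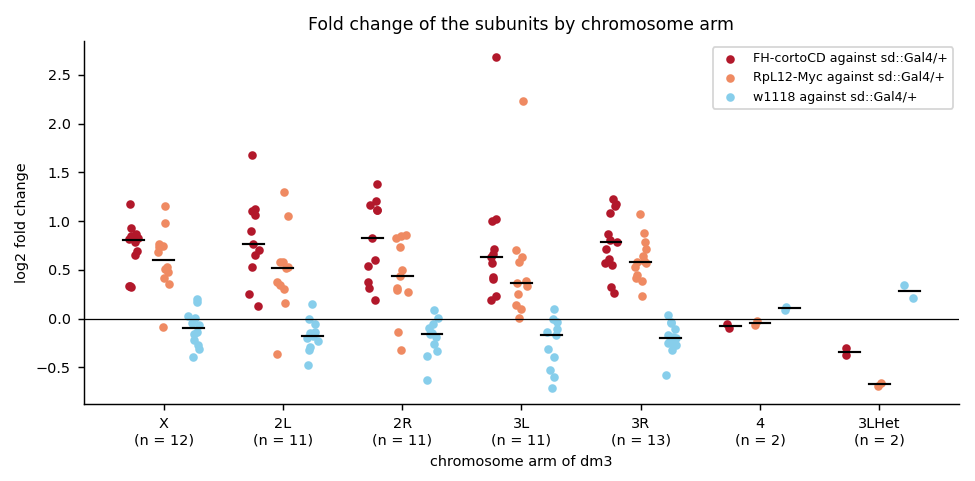
Log2 fold change (vertical axis) of 62 subunits by chromosome arm of dm3, for FH-cortoCD, RpL12-Myc and w1118 against sd::Gal4/+, 1 point per gene and a bar at the median. The 4 genes on chromosome 4 and in 3LHet lie below 0 in both assays and above 0 in w1118.

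The assays differed from each other in the subunits. Set against RpL12-Myc directly, FH-cortoCD was higher in 50 of 63 subunits, and 16, or 25.4%, passed the P-value cutoff and were higher (2.08% of all genes, 3.64% of genes with at least 1000 reads), while none passed and was lower (1.35% of all genes). UQCR-6.4 was the only one called, at 1.07 (0.163% of all genes were called higher). Subunits whose most abundant entry was shorter had the larger difference. Over the 62 subunits that had 100 reads or more in each library, the log2 ratio of FH-cortoCD to RpL12-Myc had a Pearson correlation of -0.748 and a Spearman correlation of -0.758 with the length of the entry, given as a description since genes of 1 pair of libraries are not independent replicates. Over the 6481 genes with at least 1000 reads the Pearson correlation was -0.279.

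Entry length, which can be less than that of the transcript, also went with the change against sd::Gal4/+ in FH-cortoCD (Pearson correlation -0.439 over the 62 subunits, -0.223 over the 6481 genes). In RpL12-Myc it hardly did over the subunits (-0.042) and did so weakly over the genes (-0.091). The Spearman correlations were -0.495 and -0.306 in FH-cortoCD and -0.022 and -0.161 in RpL12-Myc. The 19 subunits with entries of at most 500 bases had medians of 1.02 in FH-cortoCD and 0.58 in RpL12-Myc, where the 188 genes with such entries had 0.55 and 0.20. The 13 subunits with entries longer than 1000 bases had medians of 0.33 and 0.50, where the 5314 genes with such entries had -0.03 and 0.02. The median of the subunits was thus above that of genes of like entry length in both of these bins. A loess curve of the log2 fold change on entry length was fitted over all genes with at least 100 reads. Less this curve, the median of the 62 subunits was 0.45 in FH-cortoCD, with 53 above the curve, and 0.35 in RpL12-Myc, with 52 above it. On this scale 2 members, UQCR-Q at 2.25 and ND-B17 at 1.24, stayed above the fold limit in FH-cortoCD, and the same genes did in RpL12-Myc at 2.001 and 1.17.

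**Figure D4:**
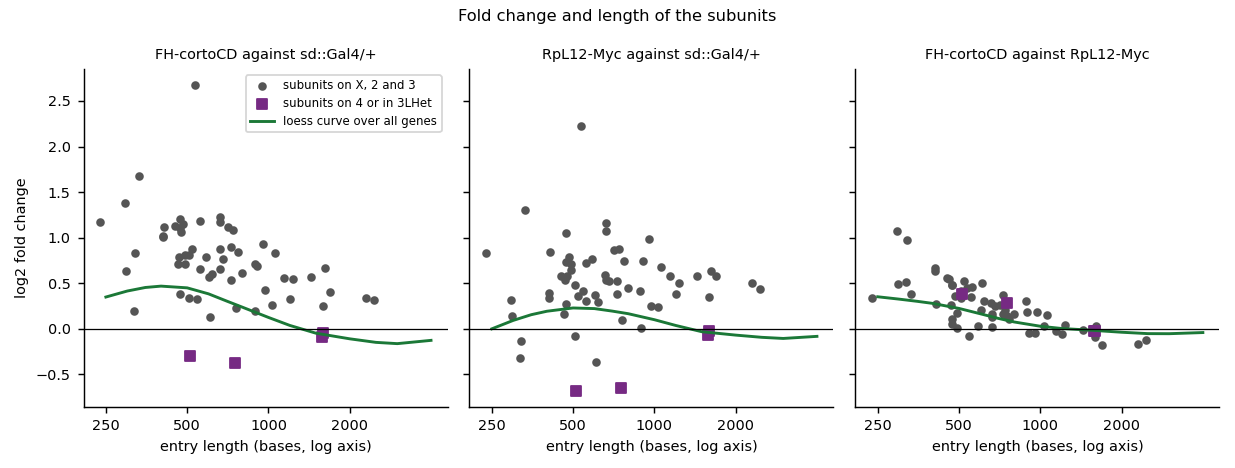
Log2 fold change (vertical axis) against the length of the most abundant entry (log axis, bases) of 62 subunits in FH-cortoCD and RpL12-Myc against sd::Gal4/+ and in FH-cortoCD against RpL12-Myc. Squares mark the 4 subunits on chromosome 4 or in 3LHet, and the curve is the loess fit over all genes with at least 100 reads. The points fall with length in the right panel (Pearson correlation -0.748).

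The change also differed along the transcripts. In 20 members a 5′ and a 3′ entry with enough reads could be compared, and the 5′ entry had the higher fold change in 14 of them in FH-cortoCD (median difference 0.21) and in 13 in RpL12-Myc (0.09). Over 1666 genes the 5′ entry was higher in 78.9% in FH-cortoCD and 73.7% in RpL12-Myc, with median differences of 0.40 and 0.38, and whether the members differ from other genes in this was not tested. ND-B17 had the largest difference, 1.92 in FH-cortoCD, and ATPsynB the opposite one, -0.84, its 5′ entry having 1969 reads in FH-cortoCD, 2076 in RpL12-Myc, 1278 in w1118 and 1813 in sd::Gal4/+. In w1118 the 5′ entry of the members was higher in 14 of 20, with a median difference of 0.05, and over the 1666 genes in 55.2%, with a median difference of 0.03.

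The 23 paralogue copies contributed few reads. In flies most such copies of respiratory chain genes are known from the testis. 16 of them had fewer than 10 reads in every library, and the 23 together had 433 reads in FH-cortoCD, 413 in RpL12-Myc, 309 in w1118 and 381 in sd::Gal4/+. Of 5 testis markers only esg, which wing discs also express, had more than 10 reads in a library, with 66.4 RPM in FH-cortoCD, 64.1 in RpL12-Myc, 74.3 in w1118 and 84.6 in sd::Gal4/+. The germline and spermatocyte markers bam, can and aly had at most 10, 2 and 2 reads in a library, and Mst84Da had no read in any. Copies with 0 reads in every library were ND-24L, ND-B14.5AL, SdhCL, UQCR-14L, COX6CL, ATPsynCF6L and ATPsynGL, which allows up to 0.0710 RPM in FH-cortoCD, 0.0683 in RpL12-Myc, 0.107 in w1118 and 0.0844 in sd::Gal4/+ (3 counts each).

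The copy with the most reads was COX6AL2, with 255 reads in FH-cortoCD, 249 in RpL12-Myc, 215 in w1118 and 254 in sd::Gal4/+. These cannot be assigned to it alone. Of its exon bases 67% are shared with Ir75d on the same strand, and 16.1% lie opposite Prp6, which had 7159 reads over the 4 libraries. Reads covered 16.4% of the bases of its entry in FH-cortoCD and 16.8% in sd::Gal4/+, and their origin was not tested. COX5BL, with 54, 44, 44 and 47 reads, lies wholly opposite Trmt6. ATPsynepsilonL had 65 reads in FH-cortoCD, 36 in RpL12-Myc, 32 in w1118 and 34 in sd::Gal4/+, with adjusted P-values of 0.065 and 0.80 in the assays in the binomial test of edgeR. No copy was called in any comparison (of all genes 1.56% and 1.01% were called higher in FH-cortoCD and RpL12-Myc).

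**Figure D5:**
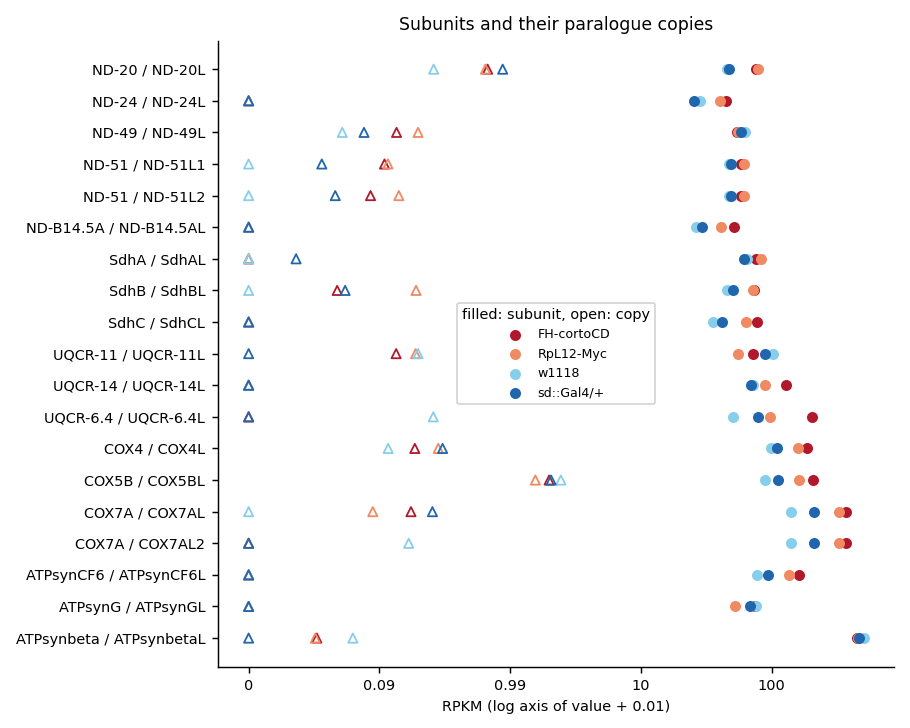
Levels of 17 subunits (filled circles) and 19 of their paralogue copies (open triangles) in the FH-cortoCD, RpL12-Myc, w1118 and sd::Gal4/+ libraries, in RPKM on a log axis of the value plus 0.01. Each row pairs a subunit with a copy, and the copies lie far below the subunits in all 4 libraries.

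Subunits and carriers whose symbols fall outside the rule changed in part. Of 18 such genes, 3 were called higher in FH-cortoCD and 0 in RpL12-Myc (1.56% and 1.01% of all genes), and 9 and 7 passed the P-value cutoff and were higher (8.45% and 8.53% of all genes). The called genes were sun, the epsilon subunit of complex V, with 7933 reads in FH-cortoCD, 4663 in RpL12-Myc, 1307 in w1118 and 2444 in sd::Gal4/+ (log2 fold changes 1.45 and 0.62), levy, subunit VIa of complex IV (1.10 and 0.89), and ox, a small subunit of complex III (1.03 and -0.46). blw, the alpha subunit that pairs with ATPsynbeta in the catalytic head of complex V, had 76492 reads in FH-cortoCD, 87603 in RpL12-Myc, 31889 in w1118 and 43350 in sd::Gal4/+. Its log2 fold changes were 0.57 and 0.71, beside -0.05 and -0.03 for ATPsynbeta. Cytochrome c1 (Cyt-c1) and the Rieske protein RFeSP of complex III changed by 0.73 and 0.62 in FH-cortoCD and by 0.71 and 0.69 in RpL12-Myc. The adenine nucleotide translocases, which exchange ATP for ADP across the inner membrane, passed the cutoff in the other direction. sesB changed by -0.24 and -0.22 and Ant2 by -0.56 and -0.64 (7.73% and 7.33% of all genes passed and were lower).

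Assembly factors were measured for comparison, and their difference from the subunits was not tested. Of 18, 1 was called higher in both assays (1.56% and 1.01% of all genes), and it was Cox17, the copper carrier for complex IV. Cox17 had 580 reads in FH-cortoCD, 532 in RpL12-Myc, 155 in w1118 and 207 in sd::Gal4/+ (log2 fold changes 1.23 and 1.05). 2 of the 18 passed the P-value cutoff and were higher in each assay, where 8.45% and 8.53% of all genes did, and none passed and was lower. The median of the list was 0.01 in FH-cortoCD and -0.05 in RpL12-Myc. Ccdc56 had the same reads as mtTFB1 of the next list, and they cannot be told apart in these counts. Of the 18 genes of the citric acid cycle and pyruvate dehydrogenase none was called, but 9 in FH-cortoCD and 10 in RpL12-Myc passed the cutoff and were higher (8.45% and 8.53% of all genes) and none lower (7.73% and 7.33%), with medians of 0.42 and 0.50. Scsalpha1, a subunit of succinyl-CoA ligase, had the largest change of those in both assays, 0.72 and 0.79.

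Of 23 regulators of mitochondrial genes and of mitochondrial DNA, 1 was called, in both assays and lower (1.55% and 2% of all genes). This was ewg, the fly relative of mammalian NRF1, which in mammals activates many nuclear respiratory chain genes. It had 842 reads in FH-cortoCD, 720 in RpL12-Myc, 1117 in w1118 and 1508 in sd::Gal4/+, that is, log2 changes of -1.09 and -1.37. srl, the fly PGC-1 relative, had 3441, 3248, 2799 and 3271 reads and changes of -0.18 and -0.32, neither past the cutoff. Myc passed it and was lower in RpL12-Myc (-0.32), and Pink1 and PolG2 passed and were higher there (0.48 and 0.49). mtTFB1, whose reads are also those of Ccdc56, passed and was higher in FH-cortoCD (0.35). Of all genes, 8.45% and 8.53% passed and were higher in FH-cortoCD and RpL12-Myc, and 7.73% and 7.33% passed and were lower. The list had medians of -0.04 and 0.08, and TFAM, which packages mitochondrial DNA, had log2 fold changes of 0.28 and 0.33 without passing the cutoff.

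The messengers of the mitochondrial genome, whose products join these nuclear subunits in complexes I, III, IV and V, went the other way. All 13 were called lower in both assays (1.55% and 2% of all genes), with a median log2 fold change of -3.38 in FH-cortoCD and -4.23 in RpL12-Myc. In w1118, where the median was -0.04, 1 was called lower (0.449% of all genes). That one was mt:ND4L, with 33 reads in FH-cortoCD, 19 in RpL12-Myc, 180 in w1118 and 2698 in sd::Gal4/+. mt:CoI, a catalytic subunit of complex IV, had 45828 reads in FH-cortoCD, 38379 in RpL12-Myc, 93096 in w1118 and 146749 in sd::Gal4/+.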

How the data were processed

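Polyadenylated RNA of 4 pools of wing discs was sequenced as 50 bp read pairs. Per the study's methods, the authors aligned the reads with Bowtie to dm3, removed reads matching more than once, and counted overlaps with the exons of FlyBase entries. The deposited counts are whole numbers without normalization, given for each read of the pairs. The deposited ratio, a fraction of the library's transcript alignments, was used only to check the labels, and the deposited number of bases not covered gave the coverage. Reads in overlapping entries were counted more than once, so totals were 1.26 times the alignments. A use of strand is not given in the sources used here. The submitters' processing notes also name CASAVA 1.7 and edgeR 1.6.10.

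Counts of both reads were summed. Entries were named through transcript identifiers of a later annotation (BDGP6), used for names and exon overlaps only, and all coordinates are those of dm3. Of 30950 entries 27902 were named, and 3048 unnamed ones held 7.48% of the counts, which stayed in the library sizes. Unnamed entries overlapped 7 members, none with more reads than the member's named entry. Libraries were compared with binomTest of edgeR 4.0.16 in R 4.3.3, with TMM library sizes from all 4 libraries, a prior count of 0.5 for fold changes and Benjamini-Hochberg adjustment, with the study's cutoffs. The fold limit was applied to TMM-scaled changes, whereas the fold changes in the study's lists are unscaled. Named members were the called ones, the largest and smallest change and the highest level of each complex. Other members and the splits of complexes I and V were singled out after their values were seen. Markers of adult muscle precursors (98.6, 109.5, 109.6 and 95.4 RPM in FH-cortoCD, RpL12-Myc, w1118 and sd::Gal4/+), salivary gland (6.13, 6.67, 11.0 and 1.46), blood cells (100.0, 140.1, 105.1 and 81.9), neurons (28.1, 26.3, 54.0 and 54.8) and trachea (132.5, 124.3, 120.4 and 114.7) were summed too. The members, gene lists and tests were chosen with earlier results of these data known. Alternatives changed the scaling (none, total counts, DESeq2 1.42.0), the cutoff, the filter, the reads, the control, the entry, the test, the members and a correction for length. Promoter motifs and protein sequences were not analysed here.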

Additional observations from a re-analysis of the deposited data

Results flagged for a closer look

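The members below differed between the assays by the binomial test of edgeR on FH-cortoCD against RpL12-Myc, that is, their effects relative to the shared sd::Gal4/+ library were unequal. All 16 were higher in FH-cortoCD, where 2.08% of all genes passed the same cutoff and were higher. With 1 library each, the difference is one between libraries.

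The log2 differences were 1.07 for UQCR-6.4, 0.52 for UQCR-14 and 0.45 for UQCR-Q in complex III. In complex I they were 0.97 for ND-MWFE, 0.55 for ND-15, 0.54 for ND-B14.5B, 0.49 for ND-MLRQ and 0.48 for ND-B17.2. In complex IV they were 0.67 for COX7B, 0.63 for COX8 and 0.37 for COX5B. In complex V they were 0.50 for ATPsynG, 0.46 for ATPsynO, 0.36 for ATPsynE, 0.27 for ATPsynF and 0.21 for ATPsynD. UQCR-14 lies wholly opposite CG32576, and 19.8% of the exon bases of ND-MWFE lie opposite TppII, so their reads cannot be told from those of these genes. Entry length moved with this difference over the subunits (Pearson correlation -0.748), and its part in each gene was not tested.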

How the results depend on the processing

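No paired analysis was possible because each genotype has 1 library. Of the values recomputed under the alternatives for the counts of calls, the medians over all members and the overlap of groups, 140 stayed within the limits (1.5 times for a count, 0.214 for a median, the SD of the subunits between the controls) and 16 moved. Without scaling, 29 members were called higher in FH-cortoCD and 17 in RpL12-Myc, with medians of 0.95, 0.81 and -0.50 in FH-cortoCD, RpL12-Myc and w1118, since unscaled changes hold the difference in library size. With first reads alone, so that each fragment counts from 1 end only, 23 members passed the P-value cutoff and were higher in RpL12-Myc. In FH-cortoCD 36 did, which stayed within the limits. With w1118 as the control, 8 were called higher and 1 lower in RpL12-Myc, the one called lower being ND-AGGG at -1.004. edgeR's exact test at the dispersion between the controls left 1 called and 1 past the cutoff in FH-cortoCD and 0 and 0 in RpL12-Myc, and at a cutoff of 0.05, added after seeing the data, 18 past the cutoff and higher in RpL12-Myc. With the loess correction for length 2 members were called in each assay and the median was 0.42 in FH-cortoCD. Leaving out paralogue copies, or members on chromosome 4 or in 3LHet, moved none of these. Nor did leaving out the 7 members that share at least 20% of their exon bases with another gene. Members that share fewer bases were kept. The settings on chromosome and on exon bases were added after seeing the data. Of 464 recomputed values of named members 425 kept their side of the thresholds, 15 gained and 24 lost a call, 18 of the losses under the loess correction, and no called value changed sign. The overlap of groups was not run under the loess correction.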
